A study of Danio rerio with 6 samples.

Results

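The genes described here are the lens crystallins of the zebrafish head, compared between *fbln1* mutant and WT larvae. They are all rows of the deposited gene table whose symbol starts with *cryaa*, *cryab*, *cryba*, *crybb*, *crygm*, *crygn* or *crygs*, which gave 57 of 32520 rows. By symbol, 3 are alpha, 7 beta A, 6 beta B, 35 gamma M, 2 gamma N and 4 gamma S crystallins. The cryptochromes *cry1* to *cry5*, the quinone reductase *cryz* and other *cry*-named genes were left out. The symbol *crygm2d17* is listed under 2 gene identifiers, which were kept as separate rows. The rule used names only, not expression values.

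RNA-Seq was performed on polyA RNA from heads of 10 dpf larvae in 3 pools of homozygous *fbln1*-/- mutants (line ulg075) and 3 pools of WT (AB), with 21 heads in each pool by the labels. The series' design text gives that number as approximate, and the study's text names whole larvae in places, whereas the sample labels and the methods of RNA extraction name heads. Both groups came from crosses of heterozygous parents and were sorted by genotyping the rest of each body, so the mutant allele was present from fertilization in every tissue. The labels name the AB strain transgenic line ulg071 Tg, a GFP insertion at the osteoblast gene *sp7*, as the stock of all samples. Labels call the 3 pools of each genotype independent batches. P-values here rest on the spread between these pools. limma draws each gene's spread towards that of other genes with similar counts, and its SE, intervals and p-values use the result.

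Crystallins are the bulk soluble proteins of lens fibre cells, and their high concentration and ordered packing give the lens its transparency and refractive power. Alpha crystallins belong to the small heat shock proteins and act as chaperones, whereas beta and gamma crystallins form a separate structural superfamily. Gamma M crystallins are methionine-rich proteins that are abundant in fish lenses and are encoded by many similar gene copies. Lens fibres are never replaced, and lenses grow by adding new fibres at their rim. In heads, fewer lens fibre cells and less crystallin mRNA per cell cannot be told apart.

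Reads counted on genes ran from 15174207 to 18721515 per library, and 3 reads in a library correspond to 2.60 to 3.20 normalized counts. Values below are normalized counts, that is, gene counts that the authors divided by 1 size factor per library, with no correction for gene length, so that levels are compared between pools and not between genes. A gene was tested where at least 3 of the 6 pools held at least 10 normalized counts, which kept 20691 genes. It was called at a Benjamini-Hochberg adjusted p under 0.05 over all tested genes (limma) and a difference of more than 0.5 between the group means of log2(normalized count + 1). The *fbln1* mRNA stood at 77.4, 135.7 and 70.4 in WT pools 1, 2 and 3 and at 93.2, 53.1 and 39.9 in mutant pools 1, 2 and 3. These ranges overlapped, and the difference of -0.63 ± 0.33 (SE, log2) did not pass the test (limma adjusted p = 0.16), so that pools were grouped by their labels alone. Lens fibre genes were present in every pool: *mipa*, a water channel of fibre membranes, lay between 2203 and 2773, and *bfsp2*, a beaded filament protein, between 1765 and 3663.

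Crystallin rows together held 2.85%, 2.01% and 3.43% of all normalized counts in WT pools 1, 2 and 3, and 2.99%, 2.53% and 3.04% in mutant pools 1, 2 and 3. The mutant pools all lay between the lowest and the highest WT pool. The summed counts averaged 449227 ± 122627 in WT and 472610 ± 46977 in mutants (SD, n = 3 each), a ratio of 1.05. Within WT, the highest pool stood 1.76 times above the lowest, against 1.21 times within the mutants, so the difference between groups was smaller than the spread between pools of 1 genotype. The log2 ratio of the sums was 0.07, and without WT pool 2 it was -0.13.

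**Figure D1:**
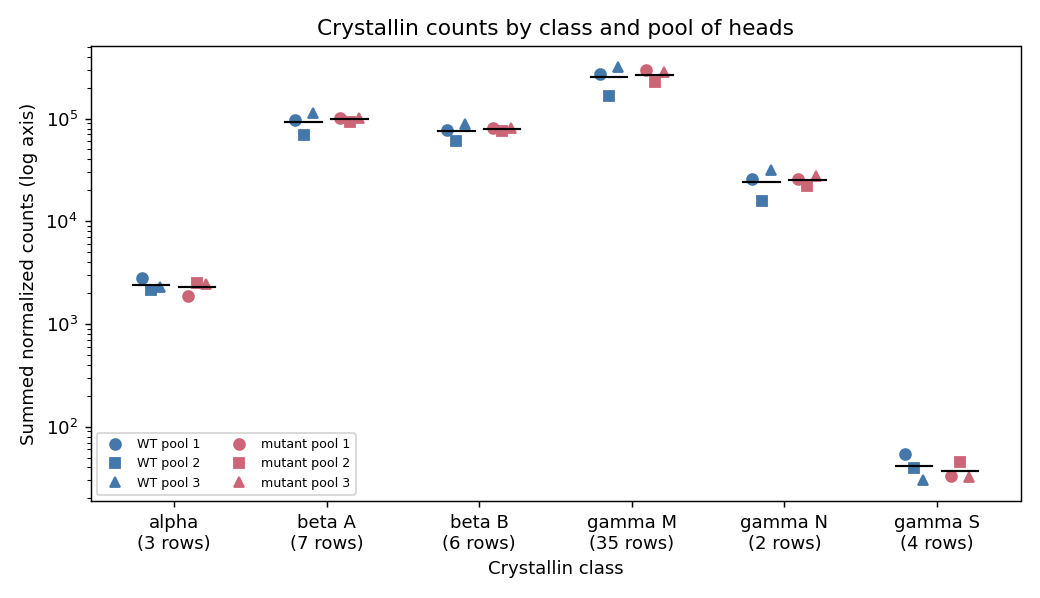
Summed normalized counts (log axis) of the 6 crystallin classes in each pool of heads, with WT in blue, mutants in red, a symbol for each pool number and a black line at each group mean. The groups overlap in each class, and WT pool 2 is the lowest of the 6 pools in the beta A, beta B, gamma M and gamma N sums.

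Among structural classes, the gamma M rows summed to 273624, 167095 and 320464 in WT pools 1, 2 and 3 and to 294130, 226855 and 281388 in mutant pools 1, 2 and 3. WT pool 2 was the lowest and WT pool 3 the highest of all 6. Beta A rows gave 96543, 69110 and 112754 in WT and 101862, 91860 and 100986 in mutants, in the same order of pools. Beta B rows gave 78224, 60947 and 88723 in WT and 81490, 75323 and 81490 in mutants. Both pairs of groups overlapped, with a WT pool at each end. Gamma N rows, of a class also found outside fish, gave 25596, 15824 and 31444 in WT and 25959, 22213 and 27359 in mutants. The ratios of group means were 1.05 for gamma M, 1.06 for beta A, 1.05 for beta B and 1.04 for gamma N.

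Alpha crystallins did not share this order. Their 3 rows summed to 2816, 2127 and 2267 in WT and to 1852, 2487 and 2469 in mutants, with a ratio of means of 0.944, and the lowest pool was mutant pool 1. Nearly all of this was *cryaa*, the lens alpha A chaperone, at 2788, 2077 and 2256 in WT pools 1, 2 and 3 and 1837, 2437 and 2437 in mutant pools 1, 2 and 3. Those ranges overlapped, and the log2 difference was -0.09 ± 0.13 (SE). The alpha B gene *cryabb* ranged from 11.7 to 46.2 in WT and from 14.3 to 44.8 in mutants. Gamma S rows held few reads in these heads, with sums from 29.9 to 53.7 in WT and from 32.1 to 44.8 in mutants.

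Of the 57 rows, 49 passed the filter on low counts and were tested. Of these 49, 4 were called higher in the mutants, which is 8.16% of them, against 15.4% of all 20691 tested genes. None of the 49 was called lower, against 2.68% of all tested genes, and at an unadjusted p under 0.05 limma, edgeR and DESeq2 each gave 2 lower members, of which each tool called 0. The 4 called genes were *crybb1l3*, *crygm1*, *crygm2e* and *crygmxl1*, and both count tools run on the recovered reads, edgeR and DESeq2, called the same 4. The number called depended on single pools: it was 2 without WT pool 2, 10 without WT pool 3, 1 without mutant pool 2 and 2 without mutant pool 3. Without a variance trend none passed, with adjusted p from 0.051 to 0.11 (limma).

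**Figure D2:**
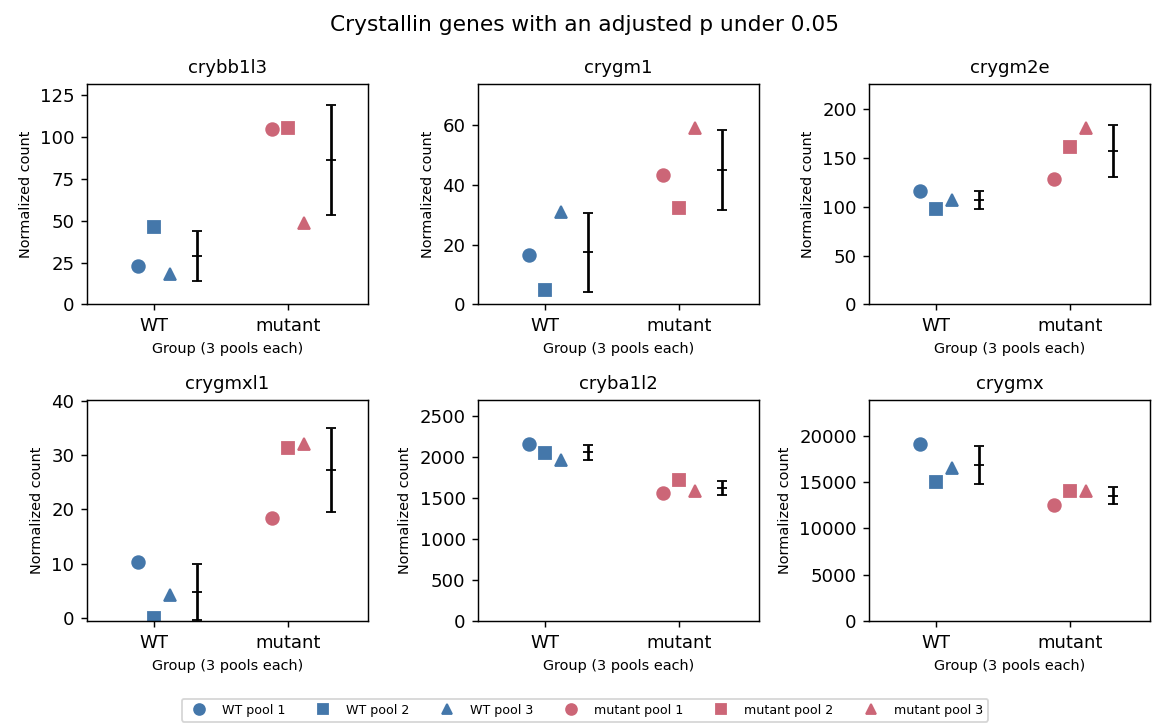
Normalized counts in each pool (WT blue, mutant red, one symbol for each pool number) of the 6 crystallin genes with an adjusted p under 0.05, with group mean and SD in black at the right. In each of the 6 panels the 3 mutant pools lie all above or all below the 3 WT pools, and *cryba1l2* and *crygmx* differ by less than 0.5 on the log2 scale.

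*crybb1l3*, a beta B1-like crystallin, stood at 22.7, 46.2 and 18.1 in WT pools 1, 2 and 3 and at 104.5, 105.2 and 48.52 in mutant pools 1, 2 and 3. Mutant pools 1 and 2 were far above WT, while mutant pool 3 lay just over WT pool 2. The log2 difference was 1.57 ± 0.38 (SE, limma adjusted p = 0.011), and it stayed called without each pool in turn, with adjusted p up to 0.050. In the RefSeq annotation of another assembly (GRCz12tu) this gene lies inside *cryba1a*, so that reads of the overlap are uncertain: the kit marks strand, but whether counting used it is not given in the sources used here. *cryba1a* itself, a beta A1 crystallin, ranged from 174 to 214 in WT and from 175 to 220.3 in mutants, a log2 difference of 0.04 ± 0.13 (SE, adjusted p = 0.84).

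The remaining 3 called genes are gamma M crystallins. *crygmxl1* was counted at 10.3, 0 and 4.27 in WT pools 1, 2 and 3 and at 18.4, 31.3 and 32.1 in mutant pools 1, 2 and 3. All 3 mutant pools were above WT pool 1, the highest WT pool, and WT pool 2 held no read. Among WT pools only pool 1 reached 10 normalized counts, so this row entered the test through its mutant pools. The fitted log2 difference of 2.81 ± 0.77 (SE, limma adjusted p = 0.017) rests on few reads in WT and ranged from 1.83, without WT pool 2, to 3.58 as single pools were left out. Without mutant pool 2 its adjusted p was 0.060.

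*crygm1* stood at 16.5, 4.71 and 30.9 in WT pools 1, 2 and 3 and at 43.0, 32.3 and 58.9 in mutant pools 1, 2 and 3. Mutant pool 2 barely exceeded WT pool 3. The log2 difference was 1.59 ± 0.54 (SE, adjusted p = 0.042), and it passed the test in only 1 of the 6 fits that left out a pool, that without WT pool 3 (adjusted p from 0.016 to 0.11). Without WT pool 2 the difference fell to 0.91. *crygm2e* gave 116.7, 98.0 and 106.7 in WT and 129.1, 161.5 and 181.1 in mutants, with the WT pools close together. Its log2 difference of 0.54 ± 0.16 (SE, adjusted p = 0.027) was just past the limit of 0.5, and it was called without WT pool 1 or mutant pool 1 but not without any other single pool.

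A pair of abundantly counted members moved the other way by less than the limit. *cryba1l2*, a beta A1-like crystallin, stood at 2157, 2053 and 1963 in WT pools 1, 2 and 3 and at 1560, 1718 and 1590 in mutant pools 1, 2 and 3. Each mutant pool was under each WT pool, by -0.34 ± 0.07 on the log2 scale (SE, adjusted p = 0.0057). *crygmx*, a gamma M crystallin, ranged from 14967 to 19047 in WT and from 12469 to 14055 in mutants, a log2 difference of -0.31 ± 0.10 (adjusted p = 0.037). For *crygmx* the adjusted p was over 0.05 under edgeR (0.058), with no filter (0.053), with no variance trend (0.11) and without WT pool 1, WT pool 3, mutant pool 1 or mutant pool 2 (0.0504 to 0.16). These 2 of 49 compare with 15.1% of all tested genes that had an adjusted p under 0.05 and a lower mean at any fold. The 4 higher members compare with 18.9% of all genes in that direction. Both lower members have means of 1000 or more normalized counts. At that level 41.6% of 3227 tested genes were lower by the same rule, against 5.71% of 35 crystallins. The median SD of log2 values among WT pools was 0.51 for these crystallins and 0.07 for all tested genes there. An equal shift would therefore pass the test, or part the pools, less often in crystallins.

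Counted by pools that do not overlap, 5 of the 49 had each mutant pool above each WT pool and 2 had each below. Over all tested genes these shares were 24.5% and 24.3%. The 2 lower members have means of 1000 or more, where 53.5% of tested genes had each mutant pool below each WT pool. The fifth in the first group was *crygm2a*, between 2.83 and 11.7 in WT and between 13.3 and 14.6 in mutants, which did not pass the test (log2 difference 1.08 ± 0.51, SE, adjusted p = 0.13). Like *crygmxl1* and *crygm1*, it passed the filter only with its mutant pools, so the filter bears on this count.

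**Figure D3:**
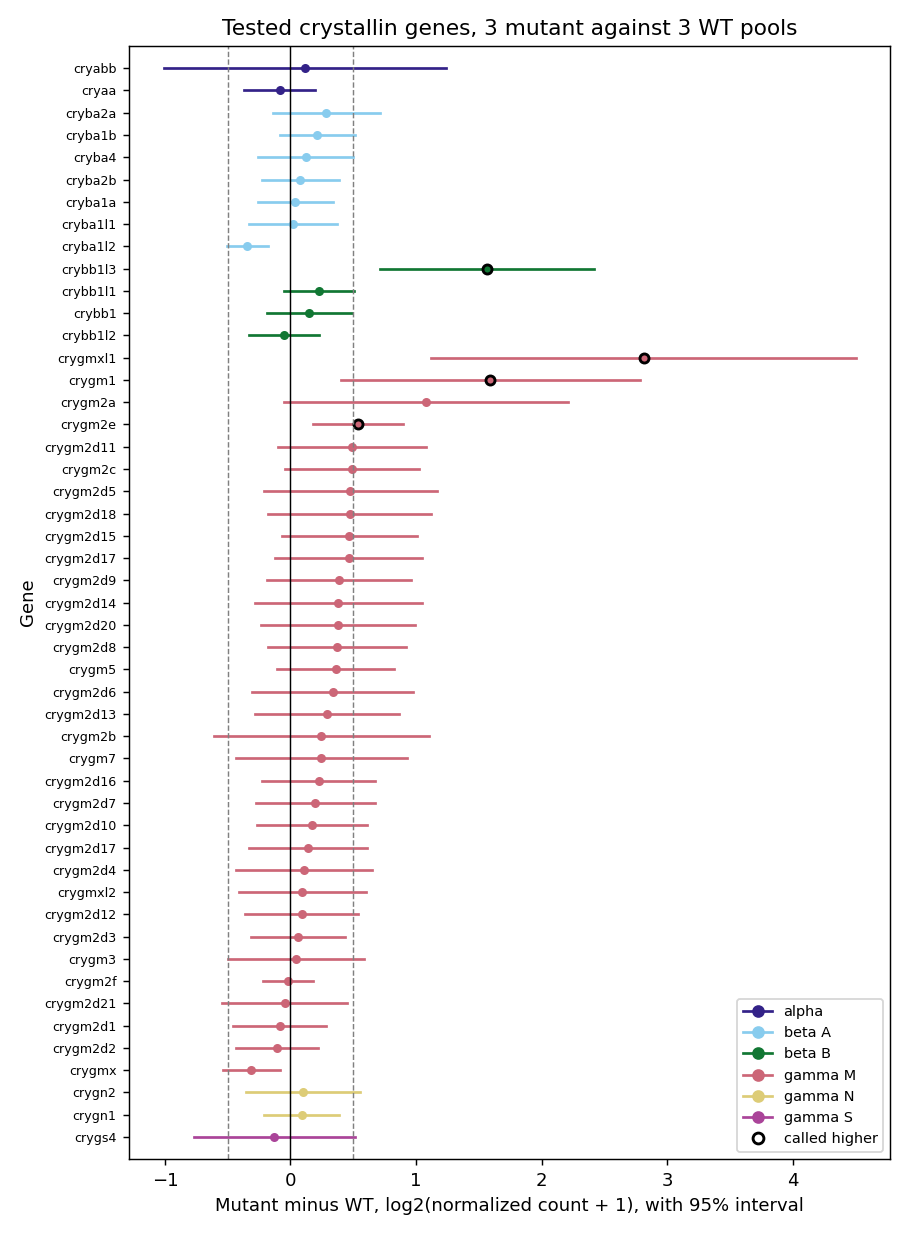
Mutant minus WT difference of log2(normalized count + 1) with its 95% interval for the 49 tested crystallin rows, coloured by class, with the called genes ringed in black and dashed lines at -0.5 and 0.5. Most points lie between 0 and 0.5 with intervals that cross 0, while *crybb1l3*, *crygm1* and *crygmxl1* lie above 1.5.

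Over the 49 tested rows the median log2 difference was 0.20, with 40 rows (81.6%) higher on average in the mutants, against a median of -0.03 and 47.7% over all tested genes. At means of 1000 or more the medians were 0.15 for crystallins and -0.18 for all tested genes. The crystallin figures over all levels depended on WT pool 2: without that pool, the median of the crystallins was -0.05, and without WT pool 3 it was 0.36. The remaining single pools left it between 0.13 and 0.27. The class medians were 0.29 for the 33 tested gamma M rows, 0.19 for 4 beta B, 0.08 for 7 beta A, 0.10 for 2 gamma N and 0.02 for 2 alpha rows, and the single tested gamma S gene, *crygs4*, gave -0.13.

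Calls fell among the rows with few reads. Of 14 tested rows with a mean under 1000 normalized counts over all pools, 4 were called higher (28.6%), against 16.8% of the 17464 tested genes in that range. Of these 4, *crygmxl1* and *crygm1* passed the filter only with their mutant pools, so the filter bears on this share too. Of 35 with a mean of 1000 or more, 0 were called in either direction, against 7.81% called higher and 3.72% called lower of 3227 genes. The differences of these 35 lay between -0.34 and 0.49, with SE from 0.07 to 0.31. Their 95% intervals reached from -0.54 to 1.16, and they passed 0.5 for 22 of the 35 and -0.5 for 3 others. These pools therefore do not bound the change of those 25 within the limit. limma drew the spread of the members towards that of other genes. Among WT pools the median SD of log2 values was 0.51 for these 35 and 0.07 for all tested genes at that level. Intervals from each member's own pools were not computed, so the pools are not shown to bound the others either.

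**Figure D4:**
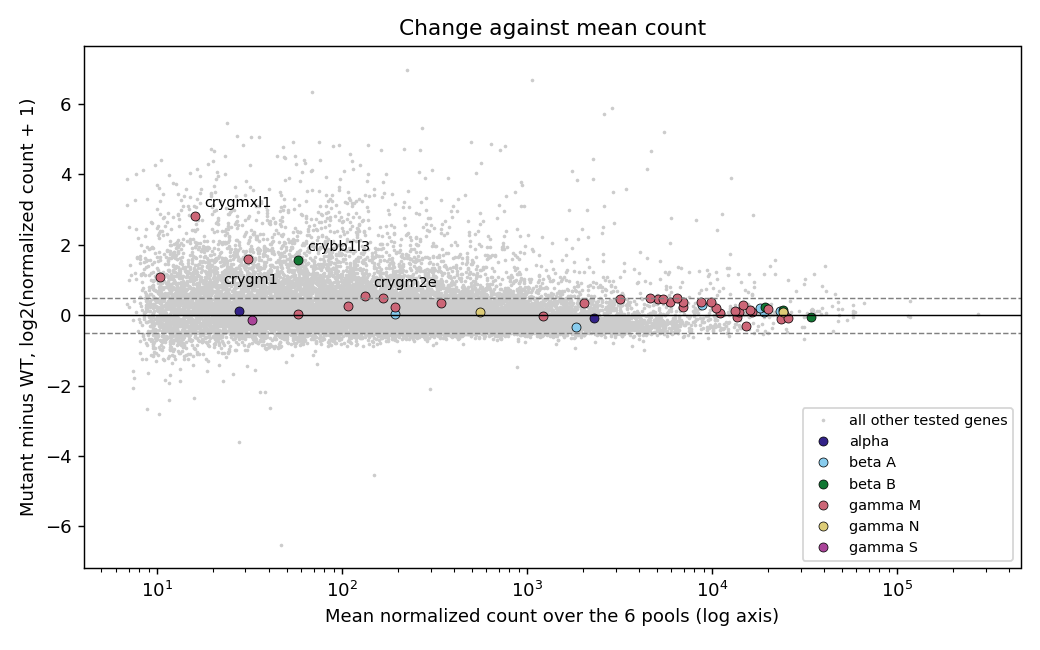
Mutant minus WT difference of log2(normalized count + 1) against the mean normalized count over 6 pools (log axis), with crystallins coloured by class, all other tested genes in grey and dashed lines at -0.5 and 0.5. The 4 called members have means under 1000, and the 35 members at or above 1000 lie between -0.34 and 0.49.

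Each of the other classes was followed through the member with the most counts. *cryba1l1*, a beta A1-like crystallin, stood at 25251, 18032 and 30274 in WT pools 1, 2 and 3 and at 24885, 23102 and 25036 in mutant pools 1, 2 and 3. The mutant pools lay close together inside the WT range, and the log2 difference was 0.02 ± 0.16 (SE). *crybb1l2*, a beta B1-like crystallin, gave 37541, 28795 and 38292 in WT and 33257, 31042 and 36007 in mutants, a difference of -0.05 ± 0.12.

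*crygn2*, a gamma N crystallin, gave 24992, 15409 and 30840 in WT and 25414, 21618 and 26796 in mutants, with a difference of 0.10 ± 0.21. *crygs4*, of the gamma S group, gave 44.4, 33.0 and 25.6 in WT and 26.6, 37.5 and 28.6 in mutants, with a difference of -0.13 ± 0.29. In both genes the groups overlapped and neither passed the test (adjusted p = 0.73 and 0.77). *crygs4* lies within *crygm3* in the RefSeq annotation, so that reads of these neighbours are uncertain too.

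The largest subfamily was *crygm2d*, with 21 rows that all passed the filter. Close copies can share reads, and how such reads were divided between copies would then set the value of each row, so these values are uncertain. How alike the copies are was not computed here, and their sum is given beside the rows. The 21 rows summed to 238096, 142019 and 282966 in WT pools 1, 2 and 3 and to 263867, 198966 and 249689 in mutant pools 1, 2 and 3, a ratio of means of 1.07. Groups overlapped, and with the rows replaced by their sum the same 4 crystallins were called. The row with the most counts, *crygm2d1*, stood at 29373, 18740 and 31581 in WT and 25383, 22899 and 25058 in mutants, a log2 difference of -0.09 ± 0.17 (SE, adjusted p = 0.73).

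Across the 21 *crygm2d* rows the log2 differences ran from -0.11 to 0.49, 18 were above 0, and the lowest adjusted p was 0.16. In all 21, WT pool 2 was the lowest of the 6 pools and mutant pool 2 the lowest of the mutant pools. WT pool 3 stood 1.46 to 2.96 times above WT pool 2, while the highest mutant pool stood 1.11 to 1.72 times above the lowest. Rows of one subfamily come from the same libraries and may share reads, so these 21 rows are not 21 separate observations. Without WT pool 3, 5 *crygm2d* rows and *cryba2a* and *crygm5* were also called higher, while *crygm2e* was lost.

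The low value of WT pool 2 was common to most crystallins. Of the 35 members with a mean of 1000 or more, 32 had their lowest value in WT pool 2 and 24 their highest in WT pool 3, whereas WT pool 2 was the lowest pool for 11.9% of all tested genes in that range. Mutant pool 2 had the lowest crystallin sum of the mutant pools (418782, against 505325 and 493724 in mutant pools 1 and 3). Whether the low sums of pool 2 in both genotypes are related was not tested. The median SD of log2 values over these 35 was 0.51 among WT pools and 0.20 among mutant pools, and 32 of the 35 had the larger SD in WT. For all tested genes at that level the medians were 0.07 in WT and 0.10 in mutants, with the larger SD in WT for 37.1%. The sum of the lens structure genes also dipped in WT pool 2. It was 24401, 19493 and 23717 in WT and 21035, 21783 and 21860 in mutants. Its members did not all share this order. Among WT pools, *bfsp2* (2964, 1765 and 3663 in pools 1, 2 and 3) and *lim2.4* (5719, 4408 and 5588) were lowest in pool 2. By contrast, *mipa* (2773, 2326 and 2203), *mipb* (4151, 3640 and 3337) and *grifin* (2057, 1810 and 1477) were lowest in WT pool 3. WT pool 2 was also the lowest WT pool in the skeletal muscle sums (175840, 128274 and 204792 in WT pools 1, 2 and 3). It was the lowest WT pool in the exocrine pancreas sums as well (256685, 139858 and 174585). The same held for the skin and cornea list (48137, 35750 and 39707) and the intestine list (9978, 8081 and 8800). In these lists all mutant sums lay above all WT sums, so that the rank of WT pool 2 compares WT pools only. The muscle sums had the crystallin order within WT, whereas the pancreas, skin and intestine sums were highest in WT pool 1. The photoreceptor sums of 229373, 206547 and 195325 in WT had another order. Whether the dip reflects the heads in that pool or the preparation was not tested.

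In the RefSeq annotation of GRCz12tu, used for gene order and overlaps only, 34 *cryg* genes from *crygm7* to *crygs3* follow one another, with 3 other genes among them. All 56 distinct symbols of the 57 rows matched that annotation, and no crystallin lay within 50 genes of *fbln1*. The called *crygm1*, *crygmxl1* and *crygm2e* and the uncalled *crygm2a* all lie near the start of this run, ahead of the *crygm2d* copies. So do *crygm7*, *crygm2b* and *crygm2c*, which gave 0.25, 0.25 and 0.49 and were not called (limma adjusted p = 0.57, 0.65 and 0.14). The tested genes of this stretch all have low means, from 10.4 to 192 normalized counts. The 19 *crygm2d* rows with a single place in the run had a median log2 difference of 0.37 over the first 9 in order and 0.14 over the following 10, with ranges from 0.09 to 0.49 and from -0.11 to 0.48. Spearman's rho of order and difference was -0.73 over these 19 rows, which share libraries and may share reads, and it is given as a description. Mean counts also differed along the run, and the last copies, *crygm2d2* and *crygm2d1*, had the highest means (23493 and 25506). *crygm2d5*, later in the run with a mean of 4612, gave 0.48. *crygm2d12*, among the first 9 with a mean of 16379, gave 0.09. Whether the difference goes with order or with mean count was not tested.

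**Figure D5:**
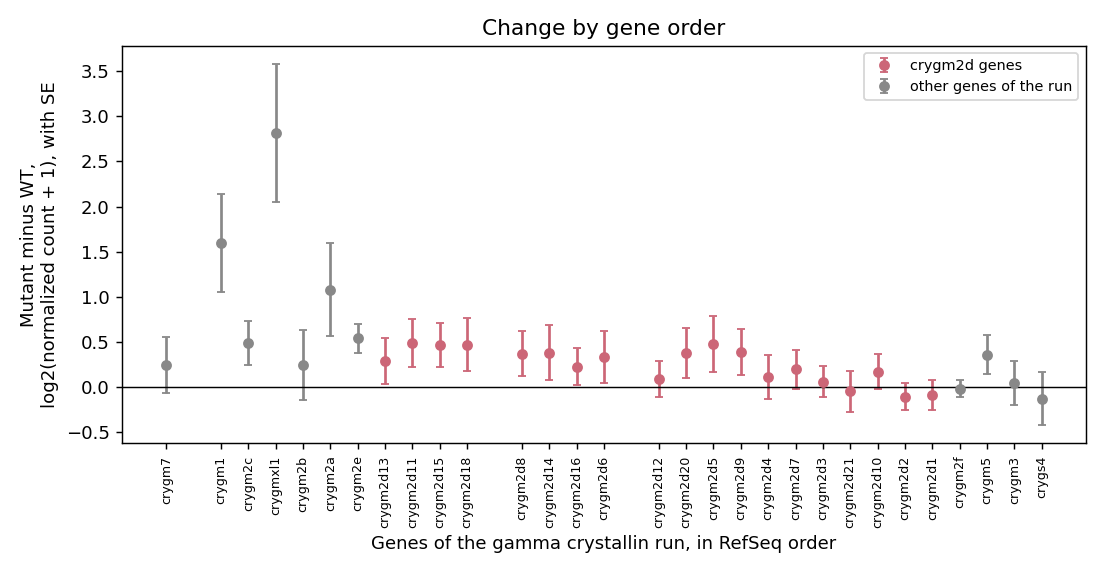
Mutant minus WT difference of log2(normalized count + 1) with its SE for the tested genes of the gamma crystallin run, in RefSeq order, with *crygm2d* copies in red and other genes in grey. The larger differences of *crygm1*, *crygmxl1* and *crygm2a* lie at the left, and the *crygm2d* copies fall from a median of 0.37 over the first 9 to 0.14 over the following 10.

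The 8 rows under the filter were *cryaba*, *crybb2*, *crybb3*, *crygm4*, *crygm6*, *crygs1*, *crygs2* and *crygs3*, and none held more than 14 reads in any pool. *crybb2*, a beta B2 crystallin, had 0 reads in each WT pool and 7, 3 and 14 reads in mutant pools 1, 2 and 3. Its mutant mean was at least 2.46-fold higher than the 3 reads per library set as floor in WT. *crybb3* had 1, 3 and 3 reads in WT and 12, 5 and 4 in mutants. For both of them the mutant pools were all over the WT pools, and an exact two-sided permutation test of the normalized counts gave p = 0.1, the smallest that 3 against 3 pools allow. With no filter on low values, *crybb2* was called (limma adjusted p = 0.0033) and *crygm1* was not (adjusted p = 0.054). *crygs1*, with 1 read in each mutant pool and 0 in WT, also did not overlap. *crygs3* held 7, 7 and 3 reads in WT and 2, 1 and 3 in mutants, so that its reads met at 3 and only its normalized counts lay apart, by 3.20 against 2.60.

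Lens structure genes other than crystallins did not move together either. Of 18 tested lens structure genes, 1 was called higher and 1 lower, with a median log2 difference of -0.02. Each is 5.56% of the list, against 15.4% called higher and 2.68% called lower of all tested genes. *gja8a*, a connexin of lens fibre gap junctions, gave 40.3, 33.9 and 23.5 in WT pools 1, 2 and 3 and 53.3, 67.7 and 49.4 in mutant pools 1, 2 and 3. All mutant pools were above WT (0.80 ± 0.27 on the log2 scale, SE, adjusted p = 0.038), and this call was lost without WT pool 2, WT pool 3, mutant pool 1 or mutant pool 2 and under DESeq2 (adjusted p = 0.054). *grifin*, a galectin-related protein of lens fibres, gave 2057, 1810 and 1477 in WT and 1007, 1392 and 1254 in mutants. It was under the WT range in each mutant pool, with a log2 difference of -0.55 ± 0.14 (adjusted p = 0.012), a call that was lost without WT pool 1 or mutant pool 1. *mipa* and *bfsp2* differed by 0.02 ± 0.10 and 0.16 ± 0.21.

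Of 13 tested transcription factors that act in the lens, 0 were called by limma, edgeR or DESeq2, with a median of -0.13. Over all tested genes limma called 15.4% higher and 2.68% lower. Each tool gave 5 of the 13 lower at an unadjusted p under 0.05. At an adjusted p under 0.05, *pax6a*, *pax6b*, *six3a*, *six3b* and *prox1a* were lower and 0 of the 13 higher. The log2 differences of these 5 lay between -0.44 and -0.36, and these genes are active in retina and brain as well. All 5 have means of 1000 or more. By that rule 15.1% of all tested genes were lower, and 41.6% of those at that level. The sums of the list did not overlap (20383 to 21923 in WT and 15279 to 18189 in mutants). *foxe3*, which is needed for the lens epithelium, stood at 14.5, 17.0 and 13.9 in WT and 14.3, 19.8 and 10.4 in mutants. *pitx3* and *hsf4*, which act in lens development, differed by -0.20 ± 0.11 and 0.05 ± 0.25.

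Of 8 tested small heat shock proteins related to the alpha crystallins, 2 were called higher and 1 lower, while neither tested alpha crystallin was called. These are 25% and 12.5% of the 8, against 15.4% and 2.68% of all tested genes. *hspb1*, a stress chaperone, rose from 151.8, 159.3 and 122.7 in WT pools 1, 2 and 3 to 440.6, 600.05 and 377.8 in mutant pools 1, 2 and 3, a log2 difference of 1.68 ± 0.17 (SE, adjusted p = 5.8e-05). *hspb8*, a chaperone of autophagy, was higher by 0.65 ± 0.15 (adjusted p = 0.0082), from 138 to 178 in WT and from 226 to 297 in mutants. *hspb15* gave a log2 difference of -0.58 ± 0.13 (adjusted p = 0.0083), from 220.5 to 265 in WT and from 141 to 180.2 in mutants, and without mutant pool 3 it was -0.4997, just inside the limit. The other 5 were not called.

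The retina is the tissue behind the lens in these heads. Of 46 tested photoreceptor genes, 3 were called higher and 4 lower, with a median of -0.18. These are 6.52% and 8.70%, against 15.4% and 2.68% of all tested genes. The higher ones were the cone opsins *opn1lw1*, *opn1lw2* and *opn1mw1* (2.85 ± 0.68, 1.04 ± 0.22 and 0.77 ± 0.12). Of these, *opn1lw1* passed the filter only with its mutant pools. The lower ones were *guca1a*, also listed as a separate row GUCA1A, *rcvrn2* and *pde6ga*, between -0.80 and -0.50, and each of these calls was lost without WT pool 1 and without mutant pool 2. Those of *guca1a*, GUCA1A and *rcvrn2* were also lost under TMM scaling and under edgeR. *rho*, the rod opsin, stood between 48643 and 65170 in WT and between 42690 and 57717 in mutants. Of 20 other retinal genes 1 was called lower (5%, against 2.68% of all tested genes) and 0 higher, and the median was -0.32. The called gene was *rbpms2b* of ganglion cells, with a log2 difference of -0.53 ± 0.11 (limma adjusted p = 0.0052). This call was lost under edgeR (-0.49), without WT pool 1 (-0.44) and without mutant pool 2 (-0.41). At any fold, 10 of the 20 were lower and 0 higher at an adjusted p under 0.05. By that rule 15.1% of all tested genes were lower, and 41.6% of those with a mean of 1000 or more. The sums of the list did not overlap (32541 to 35950 in WT and 25752 to 27735 in mutants).

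Markers of other tissues were also followed in the same pools, where 15.4% of all tested genes were called higher. All 18 tested intestine rows were called higher, with summed counts from 8081 to 9978 in WT and from 66354 to 134058 in mutants. For *fabp2*, a fatty acid carrier of enterocytes, the log2 difference was 4.17 ± 0.27. Of 20 exocrine pancreas rows 18 were called higher (sums of 139858 to 256685 and 262761 to 441850), among them the trypsin gene *prss1* (0.69 ± 0.20, adjusted p = 0.024, and 0.069 under DESeq2). Of 23 skeletal muscle rows 22 were called higher (128274 to 204792 and 258749 to 378650). Of 10 skin and cornea rows 6 were called higher (35750 to 48137 and 86734 to 111227), and these 6 were all keratins. The list's 3 genes other than keratins, *kera* and *aldh3a1* of the cornea and *pax6a*, which is also among the lens factors, gave -0.43 ± 0.21, -0.23 ± 0.13 and -0.43 ± 0.10. More cells of a tissue and more RNA per cell cannot be told apart here either, and the part of these higher marker counts in the values of the 4 called crystallins was not tested.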

How the data were processed

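The deposited values are a normalized signal per gene: gene counts that the authors obtained from nf-core rnaseq (GRCz11, Ensembl release 103) and divided by 1 size factor per library. On division by the smallest step in each library, 100% of values came out whole within 0.05 of a read, and these recovered reads fed edgeR (version 4.0.16) and DESeq2 (version 1.42.0) as alternatives. The authors' table of their own DESeq2 comparison (fold changes, p-values) was not used. limma (version 3.58.1, R version 4.3.3) was run on log2(normalized count + 1), which understates changes of low genes, with a variance trend and genotype as the only term, over all genes that reached 10 normalized counts in 3 or more libraries. A check on simulated counts gave every gene the same dispersion in both groups, unlike the crystallins, so it does not bear on their error rates. Intervals are 95%. They cover no more than the spread between pools, drawn towards that of other genes, and the floor of 3 reads covers no more than counting error.

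The members and all gene lists were chosen with earlier results of these data known. Named were called members, the member with the most counts in each class, members whose pools do not overlap, those under the filter, *fbln1*, called genes of the other lists and 6 defining genes. For skin, intestine, pancreas and muscle, counts and sums replace the called genes. *cryabb*, *cryba1a*, *cryba2a*, *crygm5*, *pitx3*, *hsf4*, the lens factors under 0.5 and the split at 1000 normalized counts were added after their values were seen. Alternatives covered scaling, filter, pseudocount (0.5 and 5), trend, threshold, a replicate block and each library left out. Gene order and overlaps of genes were read from positions in RefSeq (GRCz12tu), another build than that of the files, and no coordinates from it are given.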

Additional observations from a re-analysis of the deposited data

How the results depend on the processing

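Of the 4 called crystallins, the 4 stayed called under TMM scaling, scaling by total reads, a pseudocount of 0.5 or 5, the replicate block, edgeR and DESeq2. With a filter at 50 normalized counts, *crybb1l3*, *crygm1* and *crygmxl1* were not tested, and 1 gene, *crygm2e*, was called higher. The number called higher was 0 without the variance trend or when the change was tested against 0.5. With adjusted p alone, 2 were lower. With single pools left out, 1 to 10 crystallins were called higher and 0 lower, and the median stayed between -0.05 and 0.36. Over all genes, 2318 to 3173 were then higher and 253 to 1100 lower. edgeR gave 320 lower genes, adjusted p alone 3116, and the test against 0.5 gave 1254 higher and 2 lower. Other lens genes called higher, 1 as reported, were 0 with no filter, no trend, the filter at 50, the test against 0.5 and DESeq2, and 0 to 1 with pools left out. Those called lower, 1 as reported, were 2 with no filter, 0 with no trend or the test against 0.5, 6 with adjusted p alone and 0 to 2 with pools left out. *fbln1* ranged from -0.96 to -0.34, and passed without mutant pool 1. The cause of these shifts was not tested.

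Signs of small differences turned. *cryba1l1* was -0.013 with scaling by total reads and -0.0022 with DESeq2, and *mipa* -0.017 with scaling by total reads. With pools left out, *cryaa* ranged from -0.18 to 0.049, *cryba1l1* from -0.18 to 0.19, *crybb1l2* from -0.18 to 0.022, *crygn2* from -0.18 to 0.32, *crygs4* from -0.31 to 0.071, *crygm2d1* from -0.32 to 0.058, *mipa* from -0.060 to 0.11, *bfsp2* from -0.14 to 0.38, *foxe3* from -0.28 to 0.16 and *rho* from -0.22 to 0.00021. The log2 ratio of summed crystallin counts ranged from -0.13 to 0.26.

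Text of the series speaks of batches of mutants and their WT siblings, but not of numbers as batches. Over all tested genes, correlations of the deviations of same-numbered pools were 0.04, 0.15 and 0.04, and WT pool 1 and mutant pool 3 did not correlate best with their own number. They were not computed for the crystallins alone. The replicate block called 4 crystallins higher, 3241 genes higher and 581 lower over all genes. Rows of few reads, such as *crygmxl1*, are limited by depth.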

Other observations

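A further 15 *cry*-named rows fell outside the rule. *crybgx*, a beta gamma crystallin by name, also had its lowest value in WT pool 2 and its highest in WT pool 3, at 10383, 5919 and 14426 in WT pools 1, 2 and 3 and 12128, 9159 and 12191 in mutant pools 1, 2 and 3, with a log2 difference of 0.20 ± 0.25 (SE, limma adjusted p = 0.56). *crybg1a*, a member of the same superfamily that is not a lens crystallin, stood at 188.9, 184.7 and 147.2 in WT and 340.2, 420.9 and 391.7 in mutants (1.14 ± 0.13, adjusted p = 0.00015). *cryz*, *cryl1* and *crym*, enzymes or binding proteins named for crystallins of other animals, were called higher as well, by 0.74 ± 0.19, 0.66 ± 0.17 and 1.22 ± 0.38. *crym* stood at 12.4, 8.48 and 7.47 in WT pools 1, 2 and 3. It passed the filter only with its mutant pools. The cryptochromes *cry1a*, *cry1b*, *cry3b* and *cry4* and the related *cry-dash* were lower at an adjusted p under 0.05, with log2 differences between -0.41 and -0.25. Over all tested genes 15.4% were called higher, and 15.1% were lower by that rule at any fold. Among genes with a mean of 1000 or more, as *cry1a*, *cry3b* and *cry4* have, 41.6% were lower. These rows were named after their values were seen.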
